A study of Arabidopsis thaliana with 4 samples.

Results

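The 10 genes that encode the best known photoreceptors of Arabidopsis thaliana were followed in seedlings grown with and without the antibiotic kanamycin. They were the phytochromes PHYA, PHYB, PHYC, PHYD and PHYE, the cryptochromes CRY1 and CRY2, the phototropins PHOT1 and PHOT2, and the ultraviolet-B receptor UVR8. The genes were taken by locus identifier, and all 10 were found among the 33624 rows of the deposited gene table, of which 33539 were used. The study asked how kanamycin acts on seedlings and what the ABC transporter WBC19 contributes to that response. RNA was taken from whole 5-day-old seedlings of a control line, SALK_064816C, and of the wbc19 mutant line, SALK_107731, each on MS medium without kanamycin or with 50 mg/l. Both lines were homozygous and carried a T-DNA with the bacterial kanamycin resistance gene NPTII, the control line near CHS (TT4), upstream of its start codon. Seeds were kept 3 days at 4 °C, and the seedlings grew in 16 h of light at 23 °C and 8 h of dark at 18 °C. Each of the 4 conditions gave 1 poly(A) RNA-seq library, so no difference between these libraries has a replicate, no p-value is given, and differences between plants are not covered by any interval here. The study also measured PHYB by real-time PCR in replicates, which was not used here.

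Phytochromes are red and far-red receptors whose bilin chromophore switches the protein between an inactive and an active form, and active phytochrome enters the nucleus and acts on bHLH factors of the PIF family. Cryptochromes are blue-light receptors related to photolyases that act in part through the COP1 and SPA ubiquitin ligase complex. Phototropins are blue-light-activated protein kinases of the plasma membrane that direct phototropism, chloroplast movement and stomatal opening. UVR8 is a propeller-shaped protein that senses ultraviolet-B through tryptophans and binds COP1 when activated.

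The abundances are FPKM as the authors computed them, fragments relative to transcript length and to the mapped reads of the library, and differences are differences of log2(FPKM + 1), which understates the change of low genes. The reads behind a value were estimated from the spacing of the lowest values of each library, taken as 1 read, and the totals this spacing implies are 875933 in the library labelled Control, 1681700 in Control + kan, 1421610 in Mutant and 838194 in Mutant + kan. The totals of mapped reads listed in the study are larger in sum and are not matched there to the conditions, so the implied totals describe the scale of the FPKM and not the mapped reads. With each step taken as 2 reads all intervals below would be narrower, and 29 in place of 25 of the 40 ratios of receptors between libraries would leave out 1. This count was not made over all genes, so it is no result about the receptors. The libraries labelled Control + kan and Mutant listed fewer loci above 0, 11090 and 9013, than Control and Mutant + kan, with 15072 and 13217. Genes of 1 or 2 reads made up 3.91% and 4.37% of the single-model genes above 0 in the former pair, against 18.9% and 18.1% in the latter. WBC19 itself (AT3G55130) was listed above 0 only in the libraries labelled Mutant and Mutant + kan. It was there at 3.00 and 2.30 FPKM, about 10 and 4 reads. In Control and Control + kan it was at 0, where 3 reads would be 1.48 and 0.771 FPKM. Where its reads lie relative to the T-DNA insertion was not examined, so every line below is named only as its library was labelled. Leaf markers were abundant in all libraries and none of the 4 was 2-fold apart in any comparison. Of the 10 root markers 2, 5, 7 and 4 were listed at 0 in Control, Control + kan, Mutant and Mutant + kan, their summed FPKM ran from 536 in Mutant + kan to 1382 in Mutant, of which PYK10, a root glucosidase, alone gave 496 and 1299, and EXPA7 and SMB were at 0 in every library. The part of depth and of root tissue in the results below was not tested, and fewer cells of a type cannot be told apart from less RNA per cell.

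The phytochrome genes arose by duplication, and sequence decides how well reads of 36 bases tell them apart. The stretch that holds the codon of the cysteine to which the chromophore is bound is shown because it is the functional core all 5 genes share. Sequences are coding strands read 5′ to 3′ from the RefSeq genome, build TAIR10.1, capitals mark bases that differ from PHYB, and the cysteine codon is at bases 25 to 27.
PHYA: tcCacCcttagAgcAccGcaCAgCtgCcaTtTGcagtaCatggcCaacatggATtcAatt
PHYB: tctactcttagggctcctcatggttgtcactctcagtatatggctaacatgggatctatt
PHYC: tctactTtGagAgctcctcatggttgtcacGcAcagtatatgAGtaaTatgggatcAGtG
PHYD: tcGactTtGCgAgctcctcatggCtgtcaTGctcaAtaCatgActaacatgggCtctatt
PHYE: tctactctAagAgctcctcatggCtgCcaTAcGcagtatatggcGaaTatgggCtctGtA
These lie at chr1:3098215-3098274 on the minus strand for PHYA, chr2:8141123-8141182 on the plus strand for PHYB, chr5:14008976-14009035 on the plus strand for PHYC, chr4:9198374-9198433 on the minus strand for PHYD and chr4:10044950-10045009 on the minus strand for PHYE. PHYA differed from PHYB at 17 of 60 bases, and PHYC, PHYD and PHYE at 11, 12 and 12. Even in this conserved core no run of 36 bases was common to PHYB and another member.

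Over whole coding sequences PHYB and PHYD were the closest pair, with 80.0% identical bases over 3459 aligned, while every other pair of phytochromes had 56.9% to 62.8%. CRY1 and CRY2 shared 59.5% and PHOT1 and PHOT2 61.1%. The longest run common to PHYB and PHYD had 43 bases, and it is shown because it is the place where a read of 36 bases cannot be assigned to either gene.
PHYB: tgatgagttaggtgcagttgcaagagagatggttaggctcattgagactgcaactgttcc
PHYD: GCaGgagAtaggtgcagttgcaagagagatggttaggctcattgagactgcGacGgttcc
The stretch is chr2:8142016-8142075 on the plus strand in PHYB and chr4:9197478-9197537 on the minus strand in PHYD, with capitals marking the 6 bases in which PHYD differs. Of the 3961 windows of 36 bases in the PHYB transcript 8 matched PHYD exactly and 70 within 2 mismatches, the number the authors' aligner allowed. Those 70 windows are 1.77% of PHYB and 2.02% of PHYD. For PHYA, PHYC, PHYE, CRY1, CRY2 and UVR8 no window matched another gene's transcript within 2 mismatches, and for PHOT1 15 of 3269 did. PHOT2 was different. Of the windows of the PHOT2 model that the deposited table names, 45.4% were also in a transcript of the neighbouring gene AT5G58150, with which it shares its locus entry, so its estimated reads are uncertain.

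The receptors spanned a wide range of abundance. PHOT1 had the highest mean over the 4 libraries, 53.2 FPKM, and was followed by CRY1 with 35.9, CRY2 with 28.8, PHOT2 with 27.7, UVR8 with 22.8 and PHYA with 16.9. The light-stable phytochromes were lower, at 8.00 for PHYB, 5.87 for PHYE, 5.49 for PHYC and 2.0 for PHYD. The SD over the 4 libraries, which covers the conditions as well as error, was 18.3 for PHOT1, 22.1 for CRY1, 24.3 for CRY2, 17.2 for UVR8 and 4.79 for PHYA. No neighbours in this order among the upper 6 genes were further apart than the larger of their SDs. UVR8 and PHYA were further apart than the SD of PHYA. Within single genes the order of the libraries was also often loose. In 20 of 30 neighbouring pairs of libraries the 95% Poisson intervals of the values overlapped, a count not made for other genes. These intervals, like all below, cover only the counting error of reads taken as independent. Reads amplified by PCR without molecular identifiers are not independent molecules, so the true counting error can be larger.

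**Figure D1:**
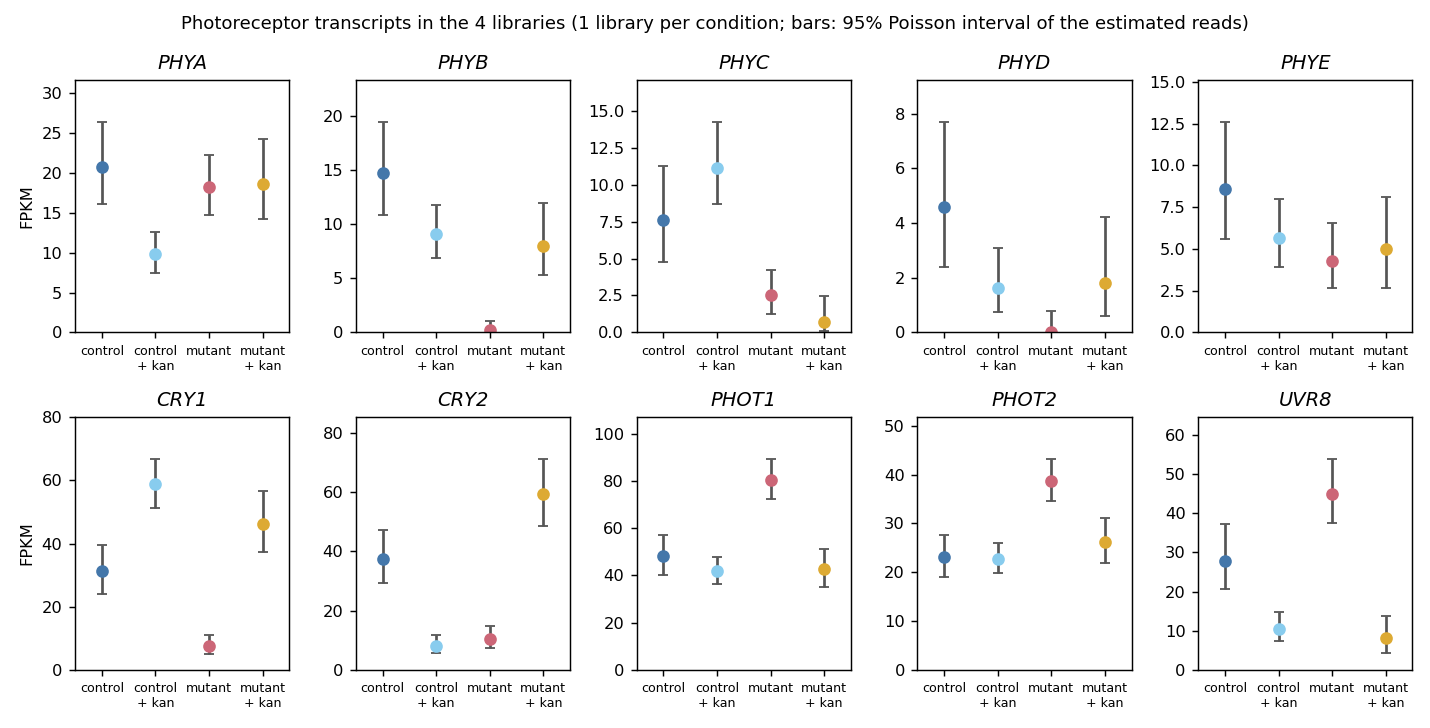
FPKM of each photoreceptor gene (one panel each, own scale from 0) in the 4 libraries, with bars giving the 95% Poisson interval of the estimated reads. PHYB is at 0.191 in the library labelled Mutant and at 8.02 or more in the other 3, CRY1 is lowest in the same library, and PHOT1, PHOT2 and UVR8 are highest there.

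PHYA (AT1G09570) encodes the light-labile phytochrome that senses far-red light and very low light. Its locus is chr1:3095256-3100357 in TAIR10, the build of the authors' files, which is used for every locus below. PHYA stood at 20.7 FPKM in the library labelled Control, 9.86 in Control + kan, 18.2 in Mutant and 18.6 in Mutant + kan. Only Control + kan was set apart, with an interval of 7.50 to 12.7 that did not reach those of the other libraries. Control exceeded Control + kan 2.10-fold (95% interval 1.47 to 3.05), while Mutant and Mutant + kan differed 1.02-fold (0.727 to 1.44).

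PHYB (AT2G18790), at chr2:8139881-8144430, encodes the main red-light receptor of light-grown plants. It was listed at 14.7 FPKM in Control, 9.10 in Control + kan, 0.191 in Mutant and 8.02 in Mutant + kan, from about 49, 58, 1 and 26 reads. The library labelled Mutant alone was low, and its interval, 0.00469 to 1.03 FPKM, did not overlap any other. The ratio of Control to Mutant was 77.1 with an interval of 13.6 to 3204, and that of Mutant + kan to Mutant was 42.0 with 7.24 to 1808. A single read carries these ratios, or about 2 if each step of the FPKM is taken as 2 reads. Between the libraries labelled Control + kan and Mutant + kan PHYB differed by 0.16 on the log2 scale (ratio 0.881, 0.543 to 1.45).

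A low value in the library labelled Mutant was common among genes of this abundance. Of the 6059 genes averaging 5 to 20 FPKM 36.3% were listed at 0 there, against 8.27% in Control, 23.7% in Control + kan and 14.2% in Mutant + kan. In the same class 44.3% were at least 2-fold lower in Mutant than in Control. The genes whose profile over the 4 libraries was most like that of PHYB, by the root mean square difference of centred log2(FPKM + 1), were AT5G53570, AtIDD4, AT1G23280, AT5G03230 and PIP5K1, at 0.067 to 0.097. All 5 were listed at 0 in the library labelled Mutant. A low value there follows from their choice by likeness to PHYB, so it adds nothing to the shares above.

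PHYD (AT4G16250), the paralog of PHYB, lies at chr4:9195602-9199486 and was the rarest receptor. It was at 4.59 FPKM in Control, 1.62 in Control + kan, 0 in Mutant and 1.80 in Mutant + kan, from about 13, 9, 0 and 5 reads. Set against a floor of 3 reads in the library labelled Mutant, 0.640 FPKM, PHYD was at least 7.16-fold higher in Control, a bound that leaves out the counting error of the Control value. The exact interval of the ratio, which covers both, began at 4.95. PHYB and PHYD were thus both lowest in the same library, as were PHYE and CRY1. Of genes averaging 5 FPKM or more 33.0% were counted as lowest there. The profiles of PHYB and PHYD differed by a root mean square of 0.65, and that of PHYD was closer to PHYE, at 0.61. PHYD averaged less than the 5 FPKM asked of genes in the counts below, and the other 9 genes averaged more.

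PHYC and PHYE encode phytochromes that act together with PHYB. PHYC (AT5G35840), at chr5:14007826-14011764, stood at 7.62 FPKM in Control, 11.1 in Control + kan, 2.5 in Mutant and 0.708 in Mutant + kan. Both libraries labelled Mutant were below both labelled Control, and the intervals of the pairs did not overlap, with 4.21 as the upper bound in Mutant and 4.75 as the lower bound in Control. Between the libraries with kanamycin PHYC was 15.7-fold lower in Mutant + kan (4.38 to 139), where it rested on about 2 reads. PHYE (AT4G18130) had 8.60, 5.63, 4.28 and 4.98 FPKM in Control, Control + kan, Mutant and Mutant + kan, and the intervals of all neighbouring values overlapped. Between the highest and the lowest, Control and Mutant, the ratio was 2.01 with an interval of 1.09 to 3.76. Its entry, chr4:10038126-10046082, is shared with AT4G18120 and with an assembled transcript that was at 5679 FPKM in the library labelled Mutant and at 0 elsewhere, and whether reads of that transcript entered the value of PHYE was not tested.

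CRY1 (AT4G08920), the cryptochrome that dominates under strong blue light, lies at chr4:5724103-5727253. It was at 31.2 FPKM in Control, 58.7 in Control + kan, 7.45 in Mutant and 46.3 in Mutant + kan, with about 25 reads in the lowest. In both lines CRY1 was higher in the library with kanamycin, 1.88-fold (1.43 to 2.53) in the control line and 6.22-fold (3.93 to 10.0) in the mutant line. The former is relative to the scaling, and rescaling by the upper quartile of each library's values above 0 left 0.15 of 0.89 on the log2 scale. Without kanamycin it was 4.19-fold lower in Mutant than in Control (2.58 to 6.89).

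CRY2 (AT1G04400), the light-labile cryptochrome that promotes flowering, lies at chr1:1185550-1188517 and had another pattern. It was at 37.4 FPKM in Control, 8.17 in Control + kan, 10.4 in Mutant and 59.3 in Mutant + kan. The libraries labelled Control + kan and Mutant, which listed the fewest loci, were low and overlapped with each other, while Control and Mutant + kan were high. CRY2 was 4.57-fold lower with kanamycin in the control line (2.93 to 7.12) and 5.70-fold higher with kanamycin in the mutant line (3.80 to 8.62). Among genes averaging 20 FPKM or more 7.54% were listed at 0 in Control + kan and 10.1% in Mutant, against 3.62% and 5.86% in Control and Mutant + kan.

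PHOT2, PHYE and PHOT1 had the narrowest ranges, with a highest FPKM + 1 of 1.67, 1.82 and 1.90 times the lowest. PHOT1 (AT3G45780), at chr3:16816866-16824210, the more sensitive phototropin, was at 48.1 FPKM in Control, 41.8 in Control + kan, 80.4 in Mutant and 42.7 in Mutant + kan. PHOT2 (AT5G58140), at chr5:23524427-23533111, which drives the chloroplast avoidance of strong light, was at 23.2, 22.8, 38.7 and 26.2 in the same order. In both genes Mutant was highest, outside the intervals of the other 3 libraries, and those overlapped. The intervals of PHOT2 and of its ratios rest on uncertain estimated reads, because its model is shared in part with AT5G58150. PHOT1 was 1.67-fold higher in Mutant than in Control (1.36 to 2.06), and PHOT2 likewise 1.67-fold (1.35 to 2.09). On the log2 scale these differences were 0.73 and 0.72, and 0.71 and 0.70 under rescaling by median ratio. By the upper quartile over rows above 0 in any library they were 0.88 and 0.86. By the upper quartile of each library's own values above 0, which were fewer in Mutant, both came out lower in Mutant, at −0.28 and −0.27. Their centred profiles differed by a root mean square of 0.14, the smallest of all pairs of receptors.

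UVR8 (AT5G63860), at chr5:25554508-25559499, stood at 27.8 FPKM in Control, 10.5 in Control + kan, 45.0 in Mutant and 8.08 in Mutant + kan. Both libraries without kanamycin were above both with it, and the intervals did not overlap between those pairs. The ratio of no kanamycin to kanamycin was 2.64 (1.67 to 4.26) in the control line and 5.58 (3.14 to 10.8) in the mutant line. On the deposited scale UVR8 and CRY1 were the only members whose interval left out 1 in the same direction for kanamycin in both lines, UVR8 lower and CRY1 higher.

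**Figure D2:**
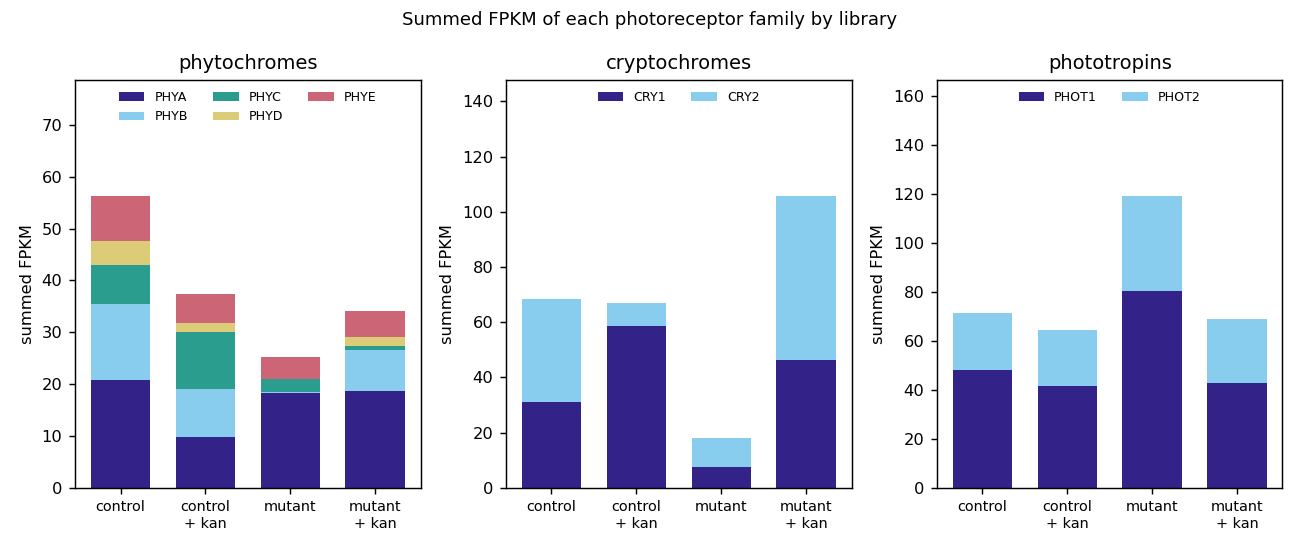
Summed FPKM of the phytochromes, cryptochromes and phototropins in each of the 4 libraries, with 1 colour per gene and bars from 0. In the library labelled Mutant PHYA makes up 72.4% of the phytochrome sum and the cryptochrome sum is 17.9 FPKM, while the phototropin sum is highest there at 119.

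By family, phytochrome FPKM summed to 56.2 in Control, 37.4 in Control + kan, 25.2 in Mutant and 34.1 in Mutant + kan. PHYA made up 36.8%, 26.4%, 72.4% and 54.5% of these sums. Cryptochromes summed to 68.6, 66.9, 17.9 and 106 FPKM, and the near equality of the first pair hid a change of makeup, since CRY2 was the larger in Control and CRY1 in Control + kan. Phototropins summed to 71.2, 64.6, 119 and 68.8 FPKM. The sum over all 10 receptors stayed between 179 and 224 FPKM.

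Each comparison was then counted by a rule of size, at least 2-fold apart on the scale of log2(FPKM + 1), among genes averaging 5 FPKM or more over the libraries, 9 receptors and 9761 genes in all. A count near the share of all genes is no result about the receptors. Between Control + kan and Control 2 of 9 receptors were called, CRY2 at −2.07 and UVR8 at −1.32, while 57.4% of all genes were, 30.8% lower and the rest higher. PHYA, at −0.999, just missed the limit, and with a pseudocount of 0.1 FPKM, or under rescaling by median ratio or upper quartile, it passed. Between Mutant and Control 4 of 9 were called, all lower, against 61% of all genes in either direction and 37.2% lower. They were PHYB at −3.72, CRY1 at −1.93, CRY2 at −1.75 and PHYC at −1.30, and with a pseudocount of 5 FPKM the call of PHYC was lost, at −0.75.

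Between Mutant + kan and Mutant 5 of 9 were called, against 62.8% of all genes. PHYB at 2.92, CRY1 at 2.49 and CRY2 at 2.40 were higher with kanamycin, as were 35.7% of all genes, and UVR8 at −2.34 and PHYC at −1.03 lower, as were 27.1%. The interval of the PHYC ratio, 0.0307 to 1.27, held 1, and its call was lost with a pseudocount of 5 FPKM, at −0.39, and under rescaling by median ratio, at −0.97, or by the upper quartile of values above 0, at −0.54. Between Mutant + kan and Control + kan 2 of 9 were called, CRY2 at 2.72 and PHYC at −2.83, against 59.4% of all genes, 29% higher and 30.4% lower. These comparisons share libraries, so a low value in Mutant enters the second and the third of them. The libraries labelled Control and Mutant + kan, which had the larger shares of genes of 1 or 2 reads, differ in both line and kanamycin, and between them 2 of 9 receptors were called, PHYC at −2.33 and UVR8 at −1.66, against 48.9% of all genes and 27.3% lower.

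The median size of the difference among the 9 receptors was 0.64, 0.86, 1.03 and 0.34 on the log2 scale in the 4 comparisons as ordered above, and among all genes of that abundance 1.23, 1.43, 1.51 and 1.33. PHYA, PHYE, PHOT1 and PHOT2 were not called in any of the 4 comparisons. That is 4 of 9, where 9.80% of all genes so chosen and 18.7% of those averaging 20 FPKM or more were never called. The count fell to 3, PHYA being called, with a pseudocount of 0.1 FPKM and under rescaling by median ratio or upper quartile, and to 2, PHYE being called as well, by the upper quartile of values above 0, where 6.10% of all genes were never called. PHOT1 and PHOT2 were not called under any of these settings. PHOT1 just missed the limit between Mutant + kan and Mutant under rescaling by upper quartile, at −0.998. The genes set against the receptors were chosen by FPKM and not by reads. At equal FPKM a longer transcript rests on more reads, and those of the receptors had 2117 to 6033 bases. The longest is the PHOT2 model that is shared in part with AT5G58150. The part of transcript length in these shares and medians was not tested. Rescaling by the upper quartile of each library's values above 0 moved the median difference of all genes from −0.00 to −0.82, from −0.28 to −1.35, from 0.08 to 0.95 and from 0.00 to 0.41. The share of calls that were higher went from 46.4% to 25.5%, from 39.1% to 17.3%, from 56.8% to 75.1% and from 48.8% to 64.3%, so directions of small differences are relative to the scaling.

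**Figure D3:**
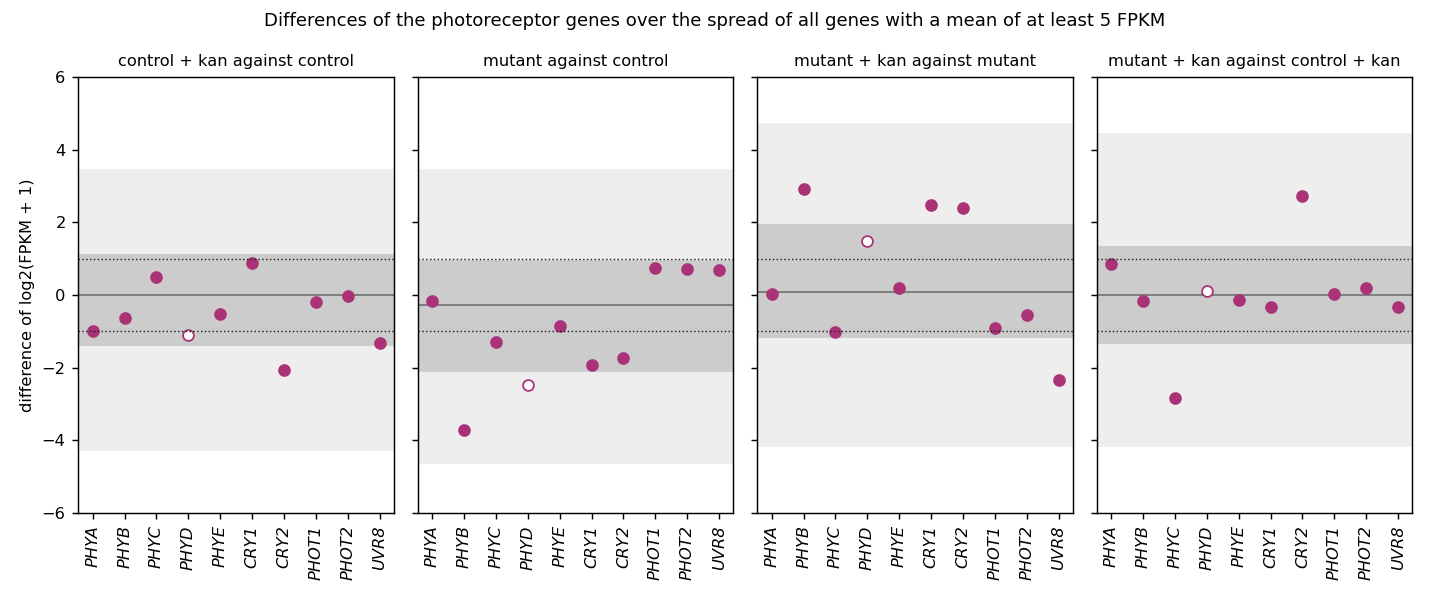
Difference of log2(FPKM + 1) of each receptor gene in the 4 comparisons, over the central 90% (light band), the central 50% (dark band) and the median (line) of the 9761 genes averaging 5 FPKM or more. Dotted lines mark 2-fold, the open circle is PHYD, which averaged less, and every receptor lies inside the light band, PHYB at −3.72 against a lower edge of −4.64 in Mutant against Control.

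**Figure D4:**
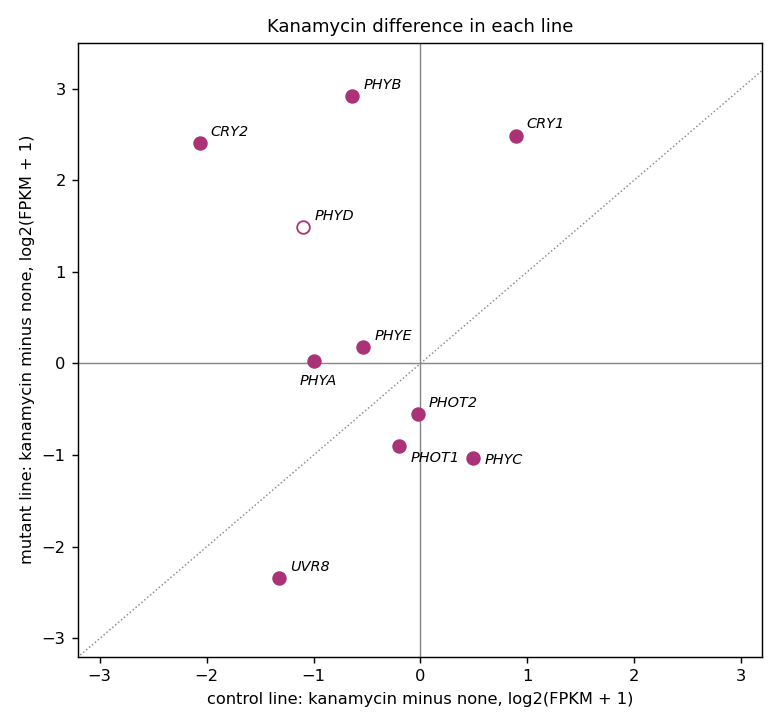
Difference of log2(FPKM + 1) between kanamycin and none in the control line (x axis) and in the mutant line (y axis), 1 point per receptor, the dotted line marking equal differences and the open circle PHYD. CRY2 lies at −2.07 and 2.40, while UVR8, at −1.32 and −2.34, and CRY1, at 0.89 and 2.49, have the same sign in both lines.

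Genes that act with the receptors were read from 8 lists with 73 genes, of which 64 were used. Their counts are to be read against the 57.4%, 61%, 62.8% and 59.4% of all genes called in the 4 comparisons. In the list of PIF factors, the bHLH proteins that active phytochrome acts on, and related bHLH factors, 4 of 8 genes averaged 5 FPKM or more. This is called passing here. Between Control + kan and Control 3 of these were called higher and 1 lower, where 57.4% of all genes were called. PIF3 went from 13.5 to 46.6 FPKM and PIF5, the most abundant, from 24.4 to 64.8, while PIF4 went from 23.0 to 3.26. PIF1 was at 5.05 and 15.5 FPKM in Control and Control + kan and at 0 in Mutant and Mutant + kan. Between Mutant + kan and Mutant none of the 4 was called.

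Of the COP1, SPA, DET1 and HY5 group, which holds the ubiquitin ligase that degrades light-signalling factors together with its targets, 8 of 13 passed. Between Mutant and Control 1 was called higher and 4 lower, against 61% of all genes, and between Mutant + kan and Mutant 4 and 4, against 62.8%. HYH, a bZIP factor close to HY5, was at 14.2, 91.1, 0 and 25.9 FPKM in Control, Control + kan, Mutant and Mutant + kan. RUP2, a repressor of UVR8 signalling, was at 12.0 and 17.9 FPKM in Control and Mutant and at 0 in both libraries with kanamycin. Among genes averaging 5 to 20 FPKM, as RUP2 did, 23.7% were listed at 0 in Control + kan and 14.2% in Mutant + kan. DET1, a repressor of photomorphogenesis, was at 8.87, 0, 70.7 and 24.6 FPKM.

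Among genes for the nuclear transport and the partners of phytochrome, 6 of 8 passed, with 2 called higher and 1 lower between Control + kan and Control and 1 and 2 between Mutant and Control, against 57.4% and 61% of all genes. FHY1, which carries phytochrome A into the nucleus, was at 10.5, 11.9, 0 and 10.0 FPKM and was the listed gene closest to PHYB in profile, at a root mean square of 0.34. FHY3, a transcription factor that activates FHY1, was at 15.4, 38.4, 6.45 and 3.65 FPKM. ARR4, a response regulator that binds phytochrome B, was at 7.89, 16.1, 33.7 and 17.4 FPKM. In the synthesis of the phytochrome chromophore 2 of 5 genes passed, and HY1, the main heme oxygenase, was at 52.8, 135, 80.5 and 84.0 FPKM and HO2 at 31.7, 5.77, 44.7 and 25.3.

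Of the phototropin pathway 10 of 11 genes passed, 4 called higher and none lower between Control + kan and Control, and 4 higher and 1 lower between Mutant and Control, against 57.4% and 61% of all genes. RPT2, a phototropin partner in phototropism, was at 74.9, 173, 75.0 and 129 FPKM, and CHUP1, which anchors chloroplasts to actin, at 44.0, 81.7, 25.3 and 55.3. Both were higher with kanamycin in both lines, as was PKS1, a substrate of phytochrome, with 10.2, 48.7, 8.62 and 44.4 FPKM. BLUS1, a kinase of stomatal opening, was at 32.2 FPKM in Mutant and between 1.59 and 6.40 in the other libraries. ZTL, an F-box protein with a blue-light-sensing LOV domain, was at 5.92, 21.0, 37.6 and 19.7 FPKM. CRY3, an organellar cryptochrome that repairs single-stranded DNA, was at 3.46, 0, 3.95 and 32.4 FPKM.

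Of 15 genes known as targets of light signalling 10 passed, with 1 called higher and 3 lower between Control + kan and Control, 3 and 4 between Mutant and Control, 2 and 2 between Mutant + kan and Mutant, and 4 and 1 between Mutant + kan and Control + kan. Of all genes 57.4%, 61%, 62.8% and 59.4% were called in these comparisons. RBCS1A and LHCB1.3, for the small subunit of Rubisco and a light-harvesting protein, were the most abundant, at 6472 to 11376 and 3926 to 4942 FPKM, and neither was called. The early light-induced genes ELIP1 and ELIP2 went apart. ELIP1 was at 12.8 FPKM in both Control and Mutant + kan and at 0 in the other libraries, and ELIP2 at 52.1 FPKM in Mutant, 8.44 in Control + kan, 1.65 in Mutant + kan and 0 in Control.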

How the data were processed

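Poly(A) RNA of 4 conditions was sequenced from 1 end, 1 library each. Per the methods and the file header, the authors clipped reads to 36 bases, aligned them to TAIR10 with TopHat2 2.0.5 (up to 2 mismatches), ran Cufflinks 2.0.2 to assemble transcripts and Cuffdiff 1.3.0 to obtain FPKM. The deposited FPKM, headed rpkm, were used as given. How reads with several matches were treated is not given in the sources used here. The table also holds the authors' fold changes, test statistics, p- and q-values and test status for each comparison, which were not used. Of 33624 rows 78 were left out because repeated copies of a value differed and 7 for want of a value, and 0.01, found in 27 cells, was read as 0.

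Differences were taken of log2(FPKM + 1), and a gene was called where they reached 1 in size with a mean of at least 5 FPKM. With 1 library per condition no test was run. Reads were estimated from the spacing of low FPKM over RefSeq transcript lengths less 200 bases. Values of 0.5 to 2.5 reads came within 0.2 of a whole number in 81.9% to 89.7% of cases. Intervals are exact Poisson intervals or exact conditional intervals of a ratio, at 95%, and a floor is 3 reads. Coding sequences came from the RefSeq assembly TAIR10.1, aligned with MAFFT 7.526, and windows of 36 bases were matched with bwa 0.7.19. Python 3.11.15, numpy 2.4.6, scipy 1.17.1, pandas 2.3.3, Biopython 1.88 and matplotlib 3.10.9 were used. Only the estimate of the FPKM of 1 read and the rule of size were tried on simulated independent reads. That trial cannot tell whether a step of the FPKM is 1 or 2 reads.

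The receptors and lists were chosen with earlier results of these data known. Of each other list, genes could be named that had the 2 highest means or the largest difference in either direction of a comparison, and for PHYB the 5 closest profiles. Of the 73 genes of the light lists 8 were not annotated under the list's symbol and 1 was not analysed here. Alternatives were other pseudocounts, limits on the mean, rescalings, and a fragment length of 36.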

Additional observations from a re-analysis of the deposited data

Results flagged for a closer look

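For 7 of the 10 receptors an effect had opposite signs in the groups set against each other. With 1 library per condition none of these differences was tested. Such a contrast sets the libraries labelled Control and Mutant + kan against Control + kan and Mutant, which listed fewer loci above 0. A kanamycin response that depends on the line therefore cannot be told apart from that difference between libraries. Kanamycin against none gave opposite signs in the 2 lines for 6 genes. The difference in the mutant line less that in the control line, on the scale of log2(FPKM + 1), was 1.03 for PHYA, 3.56 for PHYB, −1.53 for PHYC, 2.58 for PHYD, 0.71 for PHYE and 4.47 for CRY2. The intervals of both ratios left out 1 for PHYB, PHYD and CRY2. For PHYC both held 1, at 0.918 to 2.52 in the control line and 0.0307 to 1.27 in the mutant line, as for PHYE, at 0.383 to 1.15 and 0.532 to 2.33, and for PHYA that in the mutant line did, at 0.727 to 1.44. For PHYB and PHYD the difference rests on about 1 and 0 reads in the library labelled Mutant, and for PHYC on about 2 reads in Mutant + kan. Under rescaling by upper quartile the kanamycin difference of PHYA in the mutant line turned from 0.03 to −0.07, so that its signs no longer differed, and by the upper quartile of each library's values above 0 that of PHYC in the control line turned from 0.50 to −0.19, with the same outcome. For UVR8 the difference of the mutant from the control line was 0.68 without kanamycin and −0.34 with it, the latter less the former being −1.02. The interval of its ratio with kanamycin, 0.372 to 1.49, held 1.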

How the results depend on the processing

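No paired analysis was possible because each condition has 1 library, which also leaves no replicate to omit. Counts of called receptors stayed within 1.5 times under pseudocounts of 0.1 and 5, a mean of at least 1 FPKM, no filter, and rescaling by median ratio or by upper quartile over rows above 0 in any library. With a mean of at least 20 FPKM, which left 5 receptors, the counts were 2 between Mutant and Control, 3 between Mutant + kan and Mutant and 1 between Mutant + kan and Control + kan. Upper quartiles of each library's own values above 0 were run first, and the definition over rows above 0 in any library was adopted after their result was seen. Under the former, 5 receptors were called between Control + kan and Control, the other counts stayed within 1.5 times, and 9 of the 40 single differences changed sign, none of them called, against 1 of 40 under the latter and 1 of 40 by median ratio. Chosen after seeing the data, the library labelled Control in place of Mutant as partner of Mutant + kan gave 2 calls. Pseudocounts changed no sign. Subtracting 36 in place of 200 bases gave 2.5% to 8.81% fewer reads. Of the calls, PHYC was lost with a pseudocount of 5 FPKM between Mutant and Control and between Mutant + kan and Mutant, and in the latter also by median ratio and by the upper quartile of values above 0. Of the receptors 4 were never called, 3 with a pseudocount of 0.1 FPKM, by median ratio or by upper quartile, and 2 by the upper quartile of values above 0 or with a mean of at least 20 FPKM. Each step of the FPKM taken as 2 reads, also chosen after seeing the data, let 4 more of 40 ratio intervals leave out 1, PHYC and PHYE between Control + kan and Control, PHYC between Mutant + kan and Mutant and CRY1 between Mutant + kan and Control + kan. Few reads limit PHYB, PHYC and PHYD, whose lowest values rest on 0 to 2.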

Other observations

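CHS, the first enzyme of flavonoid synthesis, near which the T-DNA of the control line lies and whose table entry is a locus wider than the gene, was at 86.3 and 80.8 FPKM in the libraries labelled Control and Control + kan and at 215 and 190 in Mutant and Mutant + kan, the line difference being 1.31 and 1.22 on the log2 scale. CHI, the next enzyme of that pathway and a neighbour of WBC19 on chromosome 3, was at 19.0, 27.9, 0 and 33.0 FPKM in Control, Control + kan, Mutant and Mutant + kan. FLS1, for flavonol synthase, was at 20.7, 4.64, 59.8 and 28.6 FPKM, and F3H at 42.7, 5.08, 13.8 and 22.4. CHS, FLS1 and F3H were chosen after their values were seen.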
